A study of Mus musculus with 4 samples.

Results

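The 10 genes described here are Pecam1, Cdh5, Kdr, Flt1, Tek, Tie1, Emcn, Egfl7, Cldn5 and Esam, which mark the endothelial lineage, the cells that line blood vessels. They were chosen by name, as a list of known markers, and their exons were found in the deposited exon table by matching exon identifiers to GENCODE release M21. The table lists 183 of their exons at 175 different positions, among 226463 exons of 22835 genes.

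Endothelial cells grow and form tubes in response to VEGF ligands, which bind the receptor tyrosine kinases FLT1 and KDR, with neuropilins as co-receptors. Angiopoietins act on the receptor TEK (TIE2), and TIE1 is its partner receptor. Contacts between the cells are held by VE-cadherin (Cdh5), PECAM1, ESAM and the tight junction protein claudin 5 (Cldn5), the sialomucin endomucin (Emcn) lies on the luminal surface of veins and capillaries, and EGFL7 is a protein secreted by endothelial cells. Fibroblast cultures prepared from whole embryos can hold other cell types at the start, and several of these genes are also known outside the endothelium.

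The libraries were prepared to ask how far the melanocyte regulator MITF redirects mouse embryonic fibroblasts (MEFs), and each condition had 1 poly(A) RNA-seq library. WT MEF was from wild-type fibroblasts at passage 3, without Dox. Dox (-) and Dox (+) were Mitf knock-in MEFs at passage 5, without doxycycline and with 6 days of doxycycline. Both carried M2rtTA at ROSA26 and a Col1a1-TetO-Mitf allele, came from 1 correctly targeted KH2 embryonic stem cell clone and were grown from chimeric embryos, with mCherry and a puromycin resistance cassette available to separate transgenic from host cells. Whether host cells were left in the sequenced cultures is not stated. The library of primary melanocytes was not analysed here, because no column carries its name. The column named MEF was assigned to WT MEF by its name alone, and the study's own supplement holds other values under that name, so every value given for WT MEF describes the library labelled MEF.

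Values are RPKM, reads corrected for the exon length and for the aligned reads of a library, computed by the authors for each exon. Scaled back by the exon lengths and a library depth, they returned whole reads, within 0.02 reads, for 97.2%, 97% and 96.9% of the low values at 45000000, 45000000 and 44000000 reads in WT MEF, Dox (-) and Dox (+). The level given for a gene is the RPKM of the reads summed over the listed exons of 1 annotated transcript, with an exact Poisson 95% interval. Reads were counted exon by exon, and a read that spans neighbouring exons may count on each of them. Summed reads are then not all separate reads, short exons gain most, and the intervals can be too narrow. Annotated exons that are not listed add neither reads nor length, so levels may be overstated where those exons held no reads. The highest exon RPKM, which the study used as gene level, is named where it is given. Since no condition had more than 1 library, replicates could not be compared, no p-value was computed, and all intervals cover counting error only. A culture with fewer cells of a type and a culture with less RNA per cell cannot be told apart in such data, and neither can passage and genotype between WT MEF and the knock-in cultures.

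The cell types of the cultures were read from fixed marker lists. Mitf itself reached a highest exon RPKM of 1.52 in WT MEF, 30.8 in Dox (-) and 1544 in Dox (+). The 8 fibroblast markers summed to 7440, 20022 and 4934 RPKM in the same order. These sums were mostly Col1a1, Col1a2, Col3a1, Postn and Thy1. The other markers were much lower in WT MEF, where Lum had 4.22, Pdgfra 10 and Dcn 16.1 RPKM, against 162, 58.5 and 873 RPKM in Dox (-). The 10 macrophage and leukocyte markers summed to 23.4, 7115 and 262 RPKM, and Dox (-) therefore stands apart. Each of the 10 exceeded WT MEF more than 4-fold in Dox (-) and was again more than 4-fold lower in Dox (+), and none of them was at 0 in any library. Several genes of the endothelial programme, Flt1 among them, are also known in monocytes and macrophages. The part of these cells in the values below was not tested.

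Flt1 was abundant in both knock-in libraries and Egfl7 was present in all 3 libraries. Pecam1, Cdh5, Tie1 and Cldn5 were at or below 0.32 RPKM in each. Kdr, Tek, Esam and Emcn differed by library and were not above these genes throughout. In Dox (+), Tek at 0.0391 and Emcn at 0.0439 RPKM lay below Pecam1 at 0.105 and Cdh5 at 0.228 RPKM, and Emcn had 0 reads in WT MEF. In WT MEF the highest level was that of Egfl7, 14.9 RPKM, followed by Tek at 3.1, Flt1 at 1.5, Esam at 0.477 and Kdr at 0.176 RPKM, and no pair of neighbours in this order had overlapping counting intervals. In Dox (-) the order began with Flt1 at 31.6, Egfl7 at 6.25 and Kdr at 3.78 RPKM. Esam, Tek and Emcn came next at 0.822, 0.635 and 0.532 RPKM, with intervals that overlapped between neighbours. In Dox (+) the order was Flt1 at 44.8, Egfl7 at 15.3, Esam at 1.77 and Kdr at 0.963 RPKM, again without overlap. By rank, Flt1 lay above 39.1% of the 22835 genes in WT MEF, above 72.6% in Dox (-) and above 76.6% in Dox (+), whereas Cdh5 lay above 14.9%, 23.6% and 25.1%.

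**Figure D1:**
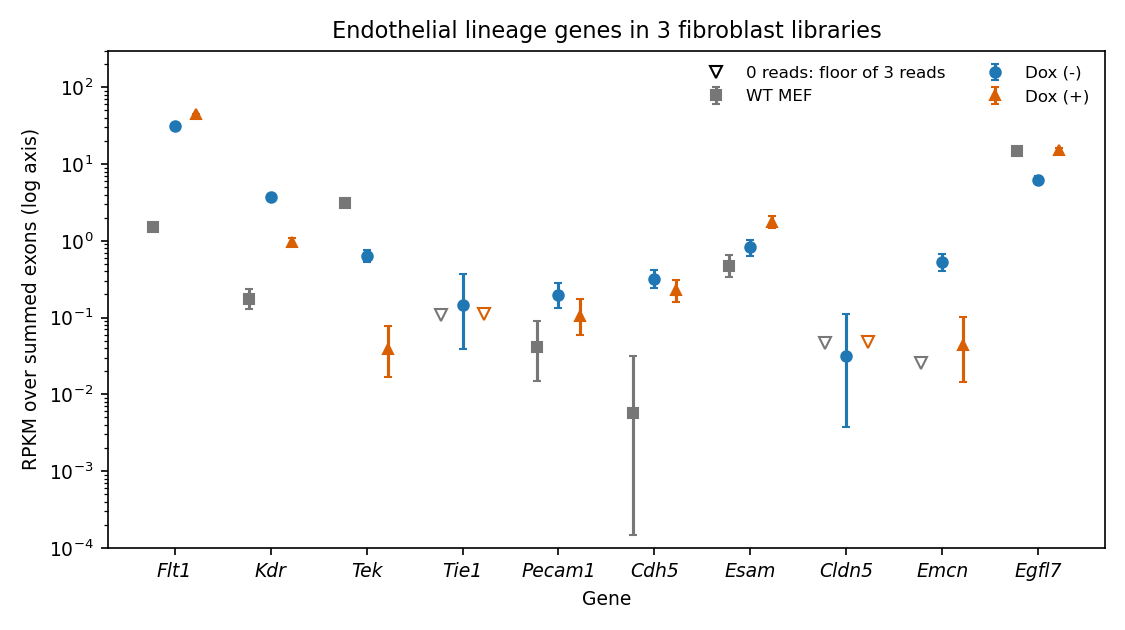
Levels of the 10 genes in RPKM over the summed exons of 1 transcript (log axis) in WT MEF (squares), Dox (-) (circles) and Dox (+) (triangles). Bars are exact 95% Poisson intervals, which cover counting error only, and open triangles mark the level of 3 reads where a library had 0 reads. Flt1 rises from 1.5 RPKM in WT MEF to 31.6 and 44.8 RPKM, Tek lies at 3.1, 0.635 and 0.0391 RPKM, and Pecam1, Cdh5, Tie1 and Cldn5 stay at or below 0.32 RPKM.

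A gene was called different, by the thresholds of the study, where its highest exon RPKM was above 10 in at least 1 of the 2 libraries and differed more than 4-fold. Between Dox (+) and Dox (-), 0 of the 10 genes were called, of the 3 (Flt1, Kdr and Egfl7) that were above 10 RPKM. Of all 13307 genes above that level, 1.64% were called higher and 5.41% lower in Dox (+). Between Dox (-) and WT MEF, Flt1 and Kdr were called higher and 0 genes lower, where 8.26% of 13234 genes were called higher and 1.21% lower in Dox (-). Between Dox (+) and WT MEF, Flt1 alone of the 10 was called, as higher, where 6.55% of 12941 genes were called higher and 3.4% lower in Dox (+). These comparisons share libraries and are not independent of each other. On the log2 scale of the highest exon with a pseudocount of 1 RPKM, which understates changes of low genes, the median of the 10 genes was -0.24 for Dox (+) against Dox (-), 0.84 for Dox (-) against WT MEF and 0.51 for Dox (+) against WT MEF. The same medians over all 22835 genes were 0.01, 0.06 and 0.12. Genes above 10 RPKM had a median log2 ratio of 0.23 for Dox (+) against Dox (-), and the folds below are not corrected for that shift.

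**Figure D2:**
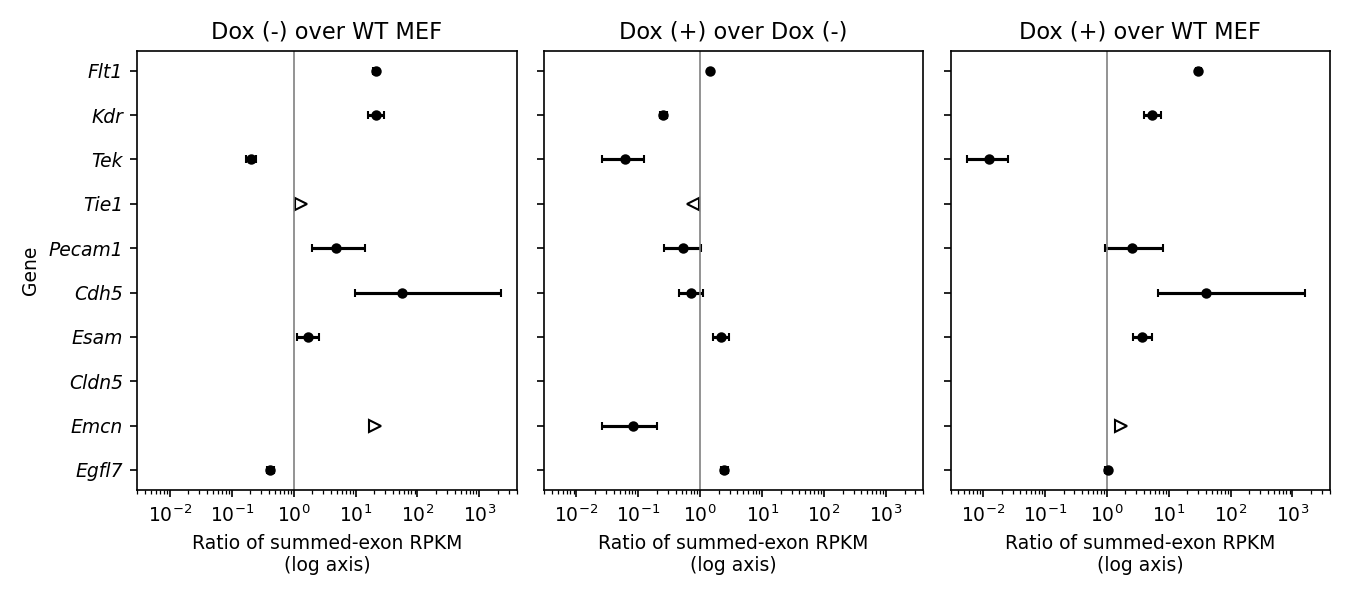
Ratio of summed-exon RPKM of each gene between 2 libraries (log axis), with exact 95% intervals that cover counting error only. Open triangles are bounds set at 3 reads where a library had 0 reads, Cldn5 (and Tie1 in the right panel) has no ratio because both libraries held 3 reads or fewer, and the line marks a ratio of 1. Flt1 and Kdr lie together at about 21-fold in Dox (-) over WT MEF and on opposite sides of the line in Dox (+) over Dox (-).

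Flt1 and Kdr, the VEGF receptors, were the genes called between libraries. Flt1 (ENSMUSG00000029648) lies on the minus strand of chromosome 5 at 147561604-147726011 in mm10 and encodes VEGF receptor 1, which binds VEGF-A, VEGF-B and PlGF. It had 464 reads in WT MEF, 9811 in Dox (-) and 13580 in Dox (+) over 30 exons, or 1.5 RPKM (1.36 to 1.64), 31.6 RPKM (31 to 32.3) and 44.8 RPKM (44 to 45.5). Both knock-in libraries were therefore far above WT MEF, and the 3 intervals did not overlap. The level was 21.1-fold higher in Dox (-) than in WT MEF (95% interval 19.3 to 23.3) and 29.9-fold higher in Dox (+) than in WT MEF (27.3 to 32.9). From Dox (-) to Dox (+) the ratio was 1.42 (1.38 to 1.45), well under the threshold of 4-fold, and each of the 30 exons was higher in Dox (+). On the highest exon the log2 difference was 0.29, and 0.06 once the libraries were rescaled by their median ratio. The macrophage markers summed to 7115 RPKM in Dox (-) and 262 RPKM in Dox (+), and their part in the Flt1 level was not tested.

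Kdr (ENSMUSG00000062960), on the minus strand of chromosome 5 at 75932827-75978458, encodes VEGF receptor 2, the main signalling receptor for VEGF-A in endothelium. It had 47 reads in WT MEF, 1007 in Dox (-) and 251 in Dox (+), or 0.176 RPKM (0.13 to 0.234), 3.78 RPKM (3.55 to 4.02) and 0.963 RPKM (0.848 to 1.09). Kdr was thus highest in Dox (-), intermediate in Dox (+) and lowest in WT MEF. It was 21.4-fold higher in Dox (-) than in WT MEF (16 to 29.4), close to the value for Flt1. From Dox (-) to Dox (+) it was 3.92-fold lower (3.41 to 4.52), in 29 of 30 exons, while Flt1 was higher. It was still 5.46-fold higher in Dox (+) than in WT MEF (3.99 to 7.63). Its highest exon RPKM was 0.889, 10.7 and 3.54, so the difference between Dox (+) and Dox (-), 3.01-fold on that scale, did not reach the threshold.

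Flt1 makes more than 1 protein. Besides the receptor, a shorter transcript that runs from exon 13 into intron 13 encodes a secreted form, soluble FLT1, which holds the ligand-binding part without the transmembrane and kinase parts and binds VEGF away from the cell surface. The ends that set these forms apart are shown because the reads differed on either side of this point. They are read from the mm10 sequence on the minus strand, 5′ to 3′. Lower case is the last 30 bases of exon 13, chr5:147639225-147639254, which both transcripts share. Capitals are the next 95 bases of each transcript, which in Flt1-203, the intron-retaining form, are intron 13 at chr5:147639130-147639224 up to and including its stop codon, and in Flt1-202, the receptor form, the start of exon 14 at chr5:147634429-147634523.
Flt1-203: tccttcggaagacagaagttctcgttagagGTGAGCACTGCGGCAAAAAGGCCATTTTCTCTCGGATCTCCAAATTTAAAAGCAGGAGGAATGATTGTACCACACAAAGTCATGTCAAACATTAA
Flt1-202: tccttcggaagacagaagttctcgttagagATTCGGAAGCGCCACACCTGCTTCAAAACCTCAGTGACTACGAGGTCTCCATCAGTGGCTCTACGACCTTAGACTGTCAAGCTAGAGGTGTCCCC
The capitals of Flt1-203 begin with the GT of the splice donor that is removed from Flt1-202, and they hold 92 coding bases followed by the stop codon TAA.

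Reads were not even along Flt1, a step seen in the values and then measured. Over exons 2 to 13, which both forms share, the level was 2.61 RPKM in WT MEF, 74.9 RPKM in Dox (-) and 101 RPKM in Dox (+). Over exons 14 to 29, which belong to the receptor form alone, it was 1.37, 23 and 39.4 RPKM. The shared part was thus higher per length in every library, 1.9-fold in WT MEF (1.51 to 2.4), 3.26-fold in Dox (-) (3.1 to 3.43) and 2.57-fold in Dox (+) (2.46 to 2.67). In Dox (-) the lowest exon of the shared part was at 41.7 RPKM and the highest of the receptor part at 27.5 RPKM, and in Dox (+) these were 72.2 and 51 RPKM, so the parts did not overlap in either knock-in library. In WT MEF they did, with exon values of 1.67 to 3.77 and of 0 to 3.66 RPKM. Kdr, whose exons 2 to 13 and 14 to 29 have almost the same lengths, had no such step, with ratios of 0.694 in Dox (-) (0.598 to 0.805), 0.894 in Dox (+) (0.665 to 1.2) and 0.572 in WT MEF (0.234 to 1.32).

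**Figure D3:**
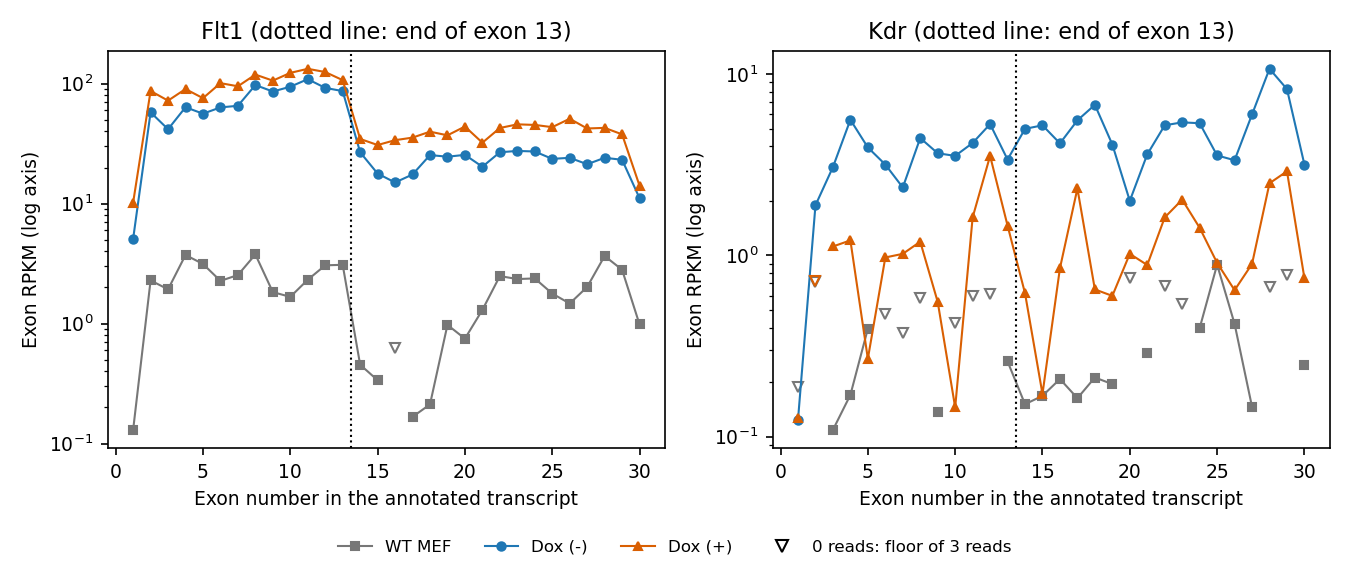
RPKM of each exon of Flt1 (left) and Kdr (right) by exon number (log axes) in WT MEF (squares), Dox (-) (circles) and Dox (+) (triangles), with open triangles at the level of 3 reads where an exon had 0 reads. The dotted line marks the end of exon 13. Flt1 drops there from 74.9 to 23 RPKM in Dox (-) and from 101 to 39.4 RPKM in Dox (+), as levels of exons 2 to 13 and 14 to 29, and Kdr does not drop.

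The step was largest in Dox (-). The ratio of shared to receptor part was 1.72-fold higher in Dox (-) than in WT MEF (1.35 to 2.18) and 1.27-fold higher in Dox (-) than in Dox (+) (1.19 to 1.36). Put by part, exons 2 to 13 were 1.35-fold higher in Dox (+) than in Dox (-) (1.31 to 1.39) and exons 14 to 29 were 1.72-fold higher (1.62 to 1.82). The 4066 bases of intron 13 that the annotation adds to exon 13 in the short form, chr5:147635159-147639224, carried reads of their own. They had 117 reads in WT MEF, 3926 in Dox (-) and 3307 in Dox (+), or 0.639, 21.5 and 18.5 RPKM. Exon 14, the next exon on the other route, is 147 bases long and had 3, 177 and 224 reads, or 0.454, 26.8 and 34.6 RPKM. Per length it was thus above the intron part in both knock-in libraries and below it in WT MEF, there on 3 reads. The intron reads are those of the extended exon 13 less those of exon 13, so a read spliced from exon 13 to exon 14 cancels out. The intron part was 33.6-fold higher in Dox (-) than in WT MEF (27.9 to 40.7) and, unlike the exons on either side, lower in Dox (+) than in Dox (-), with a ratio of 0.861 (0.822 to 0.902). The last exon of the receptor form, 2803 bases long, had 0.983, 11.1 and 14.1 RPKM. Set against exons 14 to 29, the intron part stood at 0.465 in WT MEF (0.356 to 0.607), 0.934 in Dox (-) (0.884 to 0.987) and 0.469 in Dox (+) (0.446 to 0.492). This proportion is not a share of transcripts, since reads that cross the edges of short exons raise their RPKM. That proportion was 1.99-fold lower in Dox (+) than in Dox (-) (1.85 to 2.15), and WT MEF and Dox (+) differed by less than counting error, with a ratio of 1.01 (0.768 to 1.32). A further annotated end, the last exon of a still shorter transcript, lies between exons 11 and 12 at chr5:147654269-147654509. It had 6, 217 and 270 reads, or 0.553 RPKM in WT MEF, 20 RPKM in Dox (-) and 25.5 RPKM in Dox (+), so it was higher in Dox (+) than in Dox (-) where the intron 13 part was lower. Poly(A) RNA can include unspliced transcripts, and the exon table does not separate these from the short forms. Whether reads spliced from exon 11 to exon 12 were also counted on the end between them is not given in the sources used here.

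Promoter windows from RefSeq (GRCm38.p6) were at hand for 7 of the 10 genes, in 9 windows, and those of the VEGF receptor genes are printed because both genes were higher in the knock-in libraries. Each line gives the 250 bases before the start site, 5′ to 3′ on the minus strand of chromosome 5, at chr5:147726012-147726261 for Flt1 and chr5:75978456-75978705 for Kdr. Capitals mark the searched motifs.
Flt1: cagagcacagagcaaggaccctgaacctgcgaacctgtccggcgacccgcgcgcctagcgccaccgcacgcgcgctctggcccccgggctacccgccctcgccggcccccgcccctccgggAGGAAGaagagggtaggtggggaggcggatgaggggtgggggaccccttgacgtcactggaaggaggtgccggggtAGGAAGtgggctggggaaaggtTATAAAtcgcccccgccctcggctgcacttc
Kdr: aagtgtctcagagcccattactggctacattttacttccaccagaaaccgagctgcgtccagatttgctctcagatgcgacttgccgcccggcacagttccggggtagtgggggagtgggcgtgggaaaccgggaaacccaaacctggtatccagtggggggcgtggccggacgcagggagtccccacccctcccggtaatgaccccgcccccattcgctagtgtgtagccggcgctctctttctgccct
The Flt1 window held the ETS core AGGAAG 129 and 53 bases before the start and TATAAA 31 bases before it, and the Kdr window held none of the motifs searched. All motifs were searched on both strands from 250 bases before to 50 after the start. The E-box CATGTG, a form that MITF is known to bind, was in 0 windows of the 7 genes and in 14.2% of all 32851 windows. The E-box CACGTG was likewise in 0 windows of the 7 genes and in 7.15% of all. The longer M-box core TCATGTG, which contains the first of these and overlaps its count, was in 0 and in 3.77%. AGGAAG was in 5 of the 9 windows, from 4 genes (Egfl7, Emcn, Flt1 and Tie1), and in 35.4% of all windows. CGGAAG was in that of Tie1 and in 16.9% of all, and GATAAG in that of Tek and in 7.44%. TGACTCA was in none and in 5.2%, and TATAAA in that of Flt1 and in 13.6%. A match or its absence describes the letters of these windows and nothing about binding.

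The ligands and co-receptors of these receptors were read from a list of 11 genes, 10 of which were above 10 RPKM by highest exon in a library. Of these 10, 6 were called higher between Dox (-) and WT MEF and 2 between Dox (+) and WT MEF. Between Dox (+) and Dox (-) 1 was called lower. The shares over all genes tested were 8.26%, 6.55% and 5.41% in the same order. Vegfa, the main ligand of KDR, had 97.3 RPKM in WT MEF, 139 in Dox (-) and 290 in Dox (+). Vegfb, a ligand of FLT1 alone, had 41.4, 32.1 and 83.6 RPKM. Pgf (PlGF), also a ligand of FLT1, had 2.54, 12.8 and 6.62 RPKM. Vegfa and Vegfb were thus highest in Dox (+), without passing 4-fold, and Pgf was highest in Dox (-), where it was called against WT MEF.

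Vegfc and Vegfd, the ligands of the lymphatic receptor FLT4, were both called higher in Dox (-) than in WT MEF. Vegfd was the ligand called between Dox (+) and Dox (-), with 32.4 RPKM in WT MEF, 152 in Dox (-) and 34.6 in Dox (+). Flt4 itself had 6.38, 4.46 and 4.05 RPKM. Of the 4 lymphatic genes (Prox1, Lyve1, Flt4 and Pdpn), 2 (Flt4 and Pdpn) were above 10 RPKM by highest exon and 0 were called in any comparison. Over all genes tested, 1.21% to 8.26% were called per direction and comparison, so 0 calls among 2 genes says little. Pdpn had 118, 131 and 359 RPKM. Angptl2, an angiopoietin-like secreted protein, had 114, 96.1 and 270 RPKM and was called in no comparison. The neuropilins were both abundant. Nrp1 had 49.1 RPKM in WT MEF, 225 in Dox (-) and 196 in Dox (+), and Nrp2 had 7.51, 72.4 and 38.2 RPKM, so both were higher in the 2 knock-in libraries than in WT MEF. Nrp2 passed 4-fold in each of these and Nrp1 in Dox (-).

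**Figure D4:**
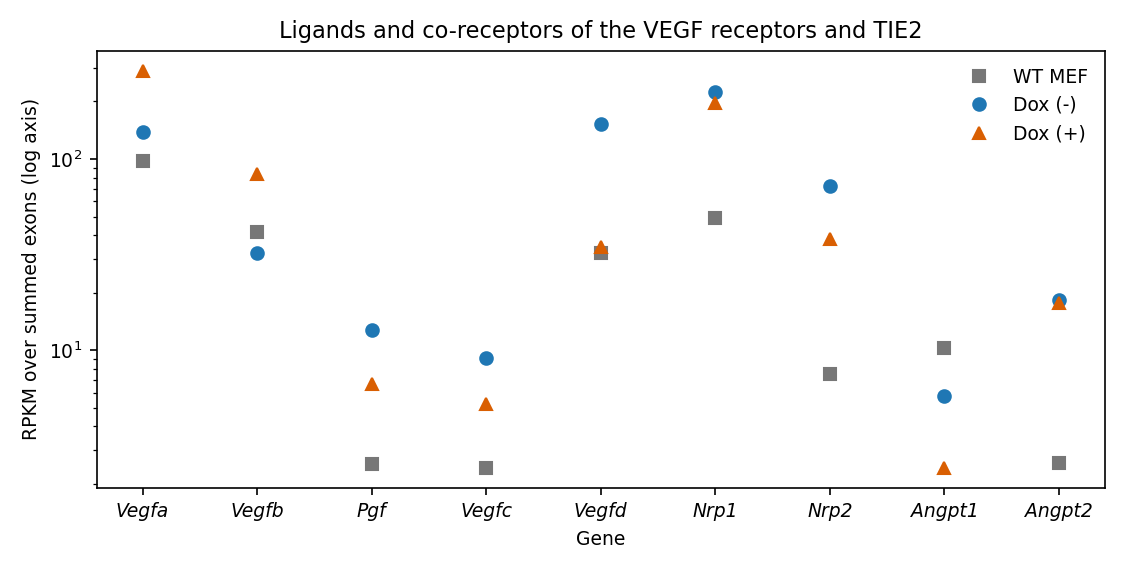
Levels of 9 ligands and co-receptors of the VEGF receptors and TIE2 in RPKM over summed exons (log axis), in WT MEF (squares), Dox (-) (circles) and Dox (+) (triangles). Vegfa is highest in Dox (+) at 290 RPKM, Vegfd is highest in Dox (-) at 152 RPKM, and Nrp1 lies at 225 and 196 RPKM in the knock-in libraries against 49.1 RPKM in WT MEF.

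Among the angiopoietin receptors, Tek had the reverse order of Flt1. Tek (ENSMUSG00000006386), on the plus strand of chromosome 4 at 94739289-94874976, encodes TIE2. It had 650 reads in WT MEF, 133 in Dox (-) and 8 in Dox (+) over 23 exons, or 3.1 RPKM (2.87 to 3.35), 0.635 RPKM (0.532 to 0.753) and 0.0391 RPKM (0.0169 to 0.077). The 3 libraries did not overlap, with WT MEF highest and Dox (+) lowest. The level was 4.89-fold lower in Dox (-) than in WT MEF (4.05 to 5.93) and 16.3-fold lower in Dox (+) than in Dox (-) (8.01 to 38.4). From WT MEF to Dox (+) the difference was 79.4-fold (40.1 to 185). Reads lay on 23 of 23 exons in WT MEF, on 22 in Dox (-) and on 3 in Dox (+), and 22 exons were lower in Dox (-) than in WT MEF with 1 equal. The highest exon of Tek reached 8.22, 2.17 and 0.161 RPKM, under 10 RPKM in every library, so the call rule did not admit it. Between Dox (-) and WT MEF the highest exon also differed by less than 4-fold, at 3.79-fold.

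The ligands of TEK differed from each other. Angpt1, its activating ligand, had the order of the receptor, with 10.3 RPKM in WT MEF, 5.73 in Dox (-) and 2.43 in Dox (+). Angpt2, which can oppose Angpt1, had 2.57, 18.4 and 17.6 RPKM and was called higher in both knock-in libraries than in WT MEF. Tie1 (ENSMUSG00000033191) lies on the minus strand of chromosome 4 at 118471191-118490061, and the table lists 4 of its 49 annotated exons, at 2 positions. All 4 held reads in Dox (-) and none in WT MEF or Dox (+), so the listing itself may follow from the few reads. Over these 613 bases Tie1 had 0 reads in WT MEF, 4 in Dox (-) and 0 in Dox (+), where 3 reads would be 0.109 RPKM in WT MEF and 0.111 RPKM in Dox (+). A difference was not detectable at this depth.

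**Figure D5:**
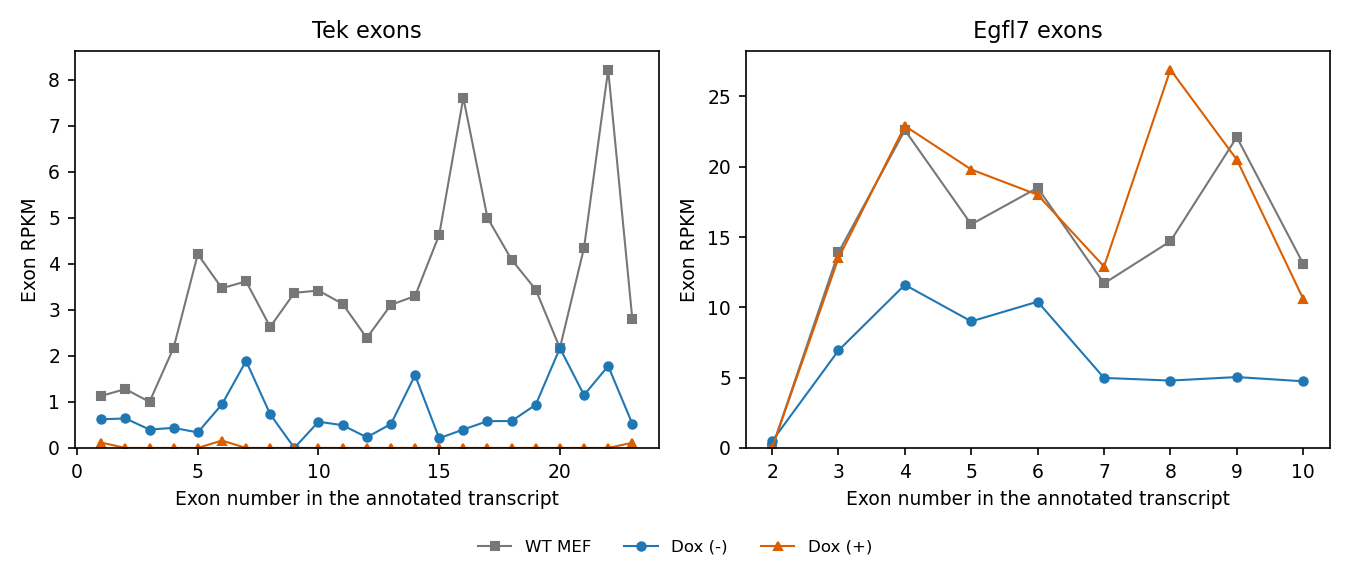
RPKM of each exon of Tek (left) and Egfl7 (right) by exon number (linear axes from 0) in WT MEF (squares), Dox (-) (circles) and Dox (+) (triangles). Tek lies highest in WT MEF along almost the whole transcript, with an exon at 2.17 RPKM shared with Dox (-), and is at or near 0 in Dox (+), and Egfl7 lies lowest in Dox (-) from exon 3 on, with WT MEF and Dox (+) close to each other.

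Genes of the endothelial junction were scarce. Cdh5 (ENSMUSG00000031871, chromosome 8, 104101625-104144511, plus strand) encodes VE-cadherin, the adherens junction protein taken as the defining marker of endothelium. It had 1 read in WT MEF, 56 in Dox (-) and 39 in Dox (+), or 0.00572 RPKM (1.45e-04 to 0.0319), 0.32 RPKM (0.242 to 0.416) and 0.228 RPKM (0.162 to 0.312). The knock-in libraries overlapped each other and lay above WT MEF. The ratio of Dox (-) to WT MEF, which rests on 1 read in the latter, was 56 (9.65 to 2251) and that of Dox (+) to Dox (-) was 0.712 (0.461 to 1.09), so the latter difference was within counting error. By exon, 3 were higher and 8 lower in Dox (+) than in Dox (-). Exons 2 and 3 held 8 and 10 reads in Dox (+) against 0 and 3 in Dox (-), which the summed ratio does not show. The reads of Dox (-) were spread over 10 of the 11 listed exons, of 14 annotated. Every listed exon held reads in at least 1 of the 3 libraries, so this spread may follow in part from the listing.

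Pecam1 (ENSMUSG00000020717, chromosome 11, 106654217-106750628, minus strand) encodes CD31, an adhesion protein of endothelium, platelets and leukocytes. It had 6, 29 and 15 reads, or 0.0409 RPKM (0.015 to 0.0891) in WT MEF, 0.198 RPKM (0.132 to 0.284) in Dox (-) and 0.105 RPKM (0.0586 to 0.173) in Dox (+). Dox (-) was above WT MEF, 4.83-fold (1.97 to 14.2), and Dox (+) overlapped both, with ratios of 0.529 to Dox (-) (0.264 to 1.02) and 2.56 to WT MEF (0.937 to 8.04). The claudin 5 gene, Cldn5 (ENSMUSG00000041378, chromosome 16, 18776847-18778262, plus strand), has 1 exon, of 1416 bases. It had 0 reads in WT MEF, 2 in Dox (-) and 0 in Dox (+), at or below the floor of 3 reads, which is 0.0471 RPKM in WT MEF and Dox (-) and 0.0482 RPKM in Dox (+).

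Esam (ENSMUSG00000001946, chromosome 9, 37528078-37538319, plus strand), an immunoglobulin-like adhesion molecule of endothelial tight junctions and platelets, was the most abundant of these junction genes. It had 40 reads in WT MEF, 69 in Dox (-) and 145 in Dox (+), or 0.477 RPKM (0.341 to 0.649), 0.822 RPKM (0.64 to 1.04) and 1.77 RPKM (1.49 to 2.08). Esam was the junction gene that was higher in Dox (+) than in Dox (-), 2.15-fold (1.6 to 2.91), in 6 of 7 exons. On the highest exon the same libraries gave 3.54 and 3.31 RPKM, from exons of 154 and 47 bases with 24 and 7 reads, so that scale showed almost no difference. Against WT MEF the ratio was 3.71 in Dox (+) (2.6 to 5.4) and 1.73 in Dox (-) (1.15 to 2.61).

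Emcn (ENSMUSG00000054690, chromosome 3, 137341067-137432185, plus strand) was seen in Dox (-) and hardly elsewhere. It had 0 reads in WT MEF, 62 in Dox (-) on all 12 exons and 5 in Dox (+) on 3 exons, or 0.532 RPKM (0.408 to 0.682) in Dox (-) and 0.0439 RPKM (0.0143 to 0.102) in Dox (+). Of 23 annotated exons 14 are listed, and each of these held reads in Dox (-). The full spread in Dox (-) may therefore follow in part from the listing. The level in Dox (-) was at least 20.7-fold higher than in WT MEF, taking 3 reads as the floor of that library. In Dox (+) it was 12.1-fold lower than in Dox (-) (4.93 to 38.6). On summed reads, Emcn, Kdr and Tek were thus the endothelial genes lower in Dox (+) than in Dox (-) beyond counting error, and Flt1, Egfl7 and Esam those that were higher. With the libraries rescaled, the log2 difference of the highest exon was 0.06 for Flt1, 1.18 for Egfl7 and -0.10 for Esam. The macrophage marker list fell from 7115 to 262 RPKM over the same libraries, and its part in these values was not tested.

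Egfl7 (ENSMUSG00000026921), on the plus strand of chromosome 2 at 26580014-26593120, was the gene with the steadiest presence. It had 809 reads in WT MEF, 339 in Dox (-) and 812 in Dox (+) over 9 exons, or 14.9 RPKM (13.9 to 16), 6.25 RPKM (5.6 to 6.95) and 15.3 RPKM (14.3 to 16.4). WT MEF and Dox (+) overlapped and Dox (-) lay below both. The ratio was 1.03 between Dox (+) and WT MEF (0.93 to 1.13) and 2.45 between Dox (+) and Dox (-) (2.16 to 2.79), and Dox (-) was 2.39-fold lower than WT MEF (2.1 to 2.72). Its highest exon RPKM of 91.5, 24.8 and 67.3 came from an annotated exon of 26 bases that lies inside an exon of 267 bases with 13.1, 4.74 and 10.6 RPKM. Reads longer than such an exon are counted on it whole, so its RPKM overstates the level. Of the 28 listed Egfl7 exons, 4 overlap exons of Gm20532 on the same strand, and their reads cannot be assigned to either gene.

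Reads along Egfl7 were uneven at its 5′ end. The 5 listed exons that lie before position 26589045 of chromosome 2, where the part common to most transcripts begins, are alternative first or early exons of 19 to 132 bases. They had 0 reads in WT MEF, at most 2 reads per exon in Dox (-), at 0.337 to 2.34 RPKM, and at most 6 in Dox (+), at 0 to 7.18 RPKM. All 23 listed exons from that position on had reads in the 3 libraries, from 3.39 to 91.5 RPKM in WT MEF, from 1.05 to 24.8 RPKM in Dox (-) and from 6.24 to 67.3 RPKM in Dox (+). The 2 ranges overlapped in both knock-in libraries and not in WT MEF. First exons that are not listed in the table were not examined. An intron of Egfl7 holds the gene of miR-126a, an endothelial microRNA, with its hairpin at chr2:26591357-26591429, between listed exons that end at 26591063 and begin at 26591434. Its mature 3p strand is shown with the seed, bases 2 to 8, in capitals, as given by RefSeq on GRCm38.p6.
mmu-miR-126a-3p: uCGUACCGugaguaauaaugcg
Poly(A) RNA libraries counted on exons do not measure this microRNA, and Egfl7 levels are given here for the host transcript alone.

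Other genes of the endothelial programme were counted whole. Of 12 endothelial transcription factors, 11 were in the table (all but Sox17) and 7 were above 10 RPKM by highest exon in a library. Of the 7 tested between Dox (-) and WT MEF, 3 were called higher (Fli1, Lmo2 and Hhex) and 0 lower. Of the 7 tested between Dox (+) and Dox (-), 4 were called lower (the same 3 and Erg) and 0 higher. Over all genes tested, 8.26% were called higher in the first comparison and 5.41% lower in the second. The lists were chosen with earlier results known, so these shares are given for scale only. Lmo2, a partner of the blood and endothelial factor TAL1, had 0.0782 RPKM in WT MEF, 27.7 in Dox (-) and 1.2 in Dox (+). Erg, an ETS factor that maintains endothelial identity, had 15.3, 7.14 and 0.956 RPKM, and it was the factor called lower in Dox (+) than in WT MEF. Erg and Tek thus shared an order, highest in WT MEF and lowest in Dox (+), while Lmo2, Hhex and Fli1 peaked in Dox (-), as Kdr and Emcn did. Fli1, Lmo2 and Hhex are also known in blood cells. The macrophage markers and the fibroblast markers both summed highest in Dox (-), and the part of either cell type in these values was not tested. Gata2, Klf2 and Nfatc1 were above 10 RPKM by highest exon and were called in no comparison.

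Of 26 further endothelial surface and junction genes, 25 were listed (all but Robo4) and 11 were above 10 RPKM by highest exon in a library. In Dox (-) against WT MEF, 4 of 11 tested were called higher (Eng, Ecscr, Tspan18 and Cd93), beside 8.26% of all genes tested. In Dox (+) against Dox (-), 3 of 11 tested were called lower (Cd34, Tspan18 and Cd93) and 0 higher, beside 5.41% and 1.64% of all. In Dox (+) against WT MEF, 3 of 9 tested were called higher (Eng, Ecscr and Thbd) and 1 lower (Cd34), beside 6.55% and 3.4% of all. Endoglin (Eng), a co-receptor for TGF-beta family ligands found on endothelium and also on stromal cells, had 2.55 RPKM in WT MEF, 17.6 in Dox (-) and 14.2 in Dox (+). Thrombomodulin (Thbd), an anticoagulant surface protein, had 33.6, 89.4 and 232 RPKM. Cd34, a sialomucin of endothelium, blood progenitors and fibroblasts, had 51.6, 18.5 and 2.46 RPKM, in the order of Tek and Erg. Mcam, Plvap, Procr, S1pr1 and Selp were above 10 RPKM and were called in no comparison. Of 5 platelet and megakaryocyte markers, 4 were above 10 RPKM by highest exon in a library. Of these 4, 1 was called higher in Dox (-) than in WT MEF and 2 lower in Dox (+) than in Dox (-). Pf4 had 0 RPKM in WT MEF, 49.8 in Dox (-) and 0.734 in Dox (+), Ppbp had 3.47, 5.79 and 0.294, Itga2b had 4.25, 2.88 and 1.9, Gp1bb had 49, 59.7 and 53.6, and Gp9 had 0 in all 3. Of 8 pericyte and smooth muscle markers, 6 were above 10 RPKM by highest exon in a library. Of these 6, 2 were called higher in Dox (-) than in WT MEF, and 0 higher and 1 (Rgs5) lower in Dox (+) than in Dox (-). The median log2 difference of all 8 between Dox (+) and Dox (-) was -0.94. Their sum of 5400, 6808 and 16227 RPKM was mostly Acta2, with 5258, 6316 and 15602 RPKM.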

How the data were processed

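RNA of 3 conditions, 1 library each, was analysed. Per the study's methods, the authors aligned reads to mm10 with TopHat2 (version 2.0.10 in the submitters' processing notes, after bcl2fastq 2.17.1.14), counted them on Ensembl exons with bedtools coverage, and deposited the RPKM of each exon. Whether counting used strand or split spliced reads is not given in the sources used here. Of 4 value columns, 1 matched no library by name and was not used. Exons were assigned to genes with GENCODE M21, which left 6586 of 234718 identifiers unmatched.

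Whole reads were recovered with exon lengths and a whole-number depth searched between 20 and 80 (in units of the RPKM scale). Gene levels were the highest exon RPKM for calls, and the reads summed over the listed exons of 1 transcript for ratios, with exact conditional binomial 95% intervals. Zero reads were set to a floor of 3. No count model was used, since no condition had more than 1 library. At depths of 45000000, 45000000 and 44000000 reads, 3 reads on the median listed exon of 140 bases are under 1 RPKM. All 10 genes are named, and other genes where above 10 RPKM or where a marker list needed it. The genes and lists were chosen with earlier results of these data known. The steps were tested on simulated data. Alternatives changed the gene level, filter, fold, scaling, pseudocount and exons used. Python 3.11.15, pandas 2.3.3, NumPy 2.4.6, SciPy 1.17.1 and matplotlib 3.10.9 were used.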

Additional observations from a re-analysis of the deposited data

How the results depend on the processing

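For Dox (+) against Dox (-), where 0 genes were called, the count was 1 with a filter of 1 RPKM (Tek, lower), 3 with no filter and 2 with a 2-fold threshold (Kdr lower and Egfl7 higher). For Dox (-) against WT MEF the 2 calls became 1 (Flt1) with reads summed over 1 transcript and 1 with the median exon, 4 with a filter of 1 RPKM and 7 with no filter, all 7 higher, and 3 with a 2-fold threshold, of which Egfl7 was lower. For Dox (+) against WT MEF the 1 call became 2 with a filter of 1 RPKM (Tek added, lower) and 4 with no filter. These counts follow from how many genes each rule admits. Rescaling the libraries, a pseudocount in the call, leaving out exons shared with other genes and, added after the data were seen, leaving out exons under 50 bases kept the counts. Of 210 log2 fold changes under alternatives, 197 moved by less than the counting error of the highest exon. That tolerance is wide where few reads lay, so the 197 say little about genes with few reads. The Emcn value for Dox (-) against WT MEF, 1.87 as planned and 4.79 with a pseudocount of 0.1 RPKM, counted as unmoved. Leaving out shared exons could change Egfl7 alone. Of the 210, 4 changed sign, for Pecam1, Esam and Egfl7, which were not called. The Flt1 value for Dox (+) against Dox (-) was 0.29 as reported, 0.06 with the libraries rescaled and 0.70 with the median exon. The Egfl7 value for Dox (+) against WT MEF was -0.44 with the highest exon and 0.04 with summed reads. Planned comparisons with the melanocyte library were not run. No paired analysis was possible because each condition had 1 library. The depth limits Tie1 and Cldn5, and counting intervals say nothing of variation between cultures.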
